A study of Mus musculus with 3 samples.

Results

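Axon guidance ligands and receptors were examined as a group of 68 genes among the 21938 protein-coding genes of the GENCODE annotation of GRCm38. The rule that chose the members used gene symbols and no measured value. They comprised the semaphorins other than Sema7a, the plexins, the neuropilins Nrp1 and Nrp2, the Slits and their Robo receptors, the netrins whose symbol is Ntn followed by a digit, the netrin receptors Dcc and Unc5a to Unc5d, and the ephrins with their EphA and EphB receptors. A TR binding site (TRBS) was linked to a member when its summit lay inside the gene body or within 30 kb of the 5-prime end of the gene, used here as the transcription start site (TSS). By this rule 178 of the 23988 TRBS of the data set were linked to at least 1 member.

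The TRBS came from chromatin immunoprecipitation followed by sequencing (ChIP-seq) of TRα1, a nuclear receptor of thyroid hormone (T3), in the striatum of adult male mice. The animals were of the C57BL/6J strain, carried the genotype given as TRa1 GS-tagged, were untreated and euthyroid, and were 8 weeks old. The tagged receptor was restricted to GABAergic neurons by a floxed construct, so that occupancy was recorded for this form of the receptor in these cells of a mixed tissue. The series held 2 ChIP libraries and 1 input library, all from mice with the tagged receptor, and a control from untagged mice was not analysed here. The deposited values were 1 list of TRBS for the series. The list had no values for single libraries, so that no replicate error could be computed, no test was made, and the depth of the libraries was unknown. Intervals are 95% intervals over TRBS or genes and cover counting error only.

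These proteins steer growing axons and, in the adult brain, act on the shape and plasticity of synapses. A ligand (a semaphorin, Slit, netrin or ephrin) is read by a receptor on the growth cone (a plexin with or without a neuropilin, a Robo, Dcc or Unc5, or an Eph receptor tyrosine kinase), and the cytoskeleton of the growth cone is then extended or collapsed. In the developing striatum such cues direct incoming cortical, thalamic and dopaminergic fibres and the outgoing axons of the GABAergic projection neurons. TRα1 binds DNA mainly as a heterodimer with RXR, and its classical response element is the DR4, a direct repeat of the AGGTCA hexamer with a spacer of 4 bases.

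DR4 elements with at most 1 mismatch in the 12 hexamer bases were found in 7 of the 178 linked TRBS. They are shown because they are the closest matches to the classical element near these genes, and no linked TRBS had a perfect one. The sequences are those of the reference genome (GRCm38, NCBI RefSeq), written 5′ to 3′ on the strand that carries the repeat, with 22 bases on either side, and the capitals mark the pair of hexamers.
Epha6, chr16:60006910-60006969, plus strand: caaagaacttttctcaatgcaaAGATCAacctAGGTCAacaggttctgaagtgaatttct
Sema3f, chr9:107702328-107702387, minus strand: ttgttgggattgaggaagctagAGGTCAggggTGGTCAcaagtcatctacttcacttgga
Efna2, chr10:80160975-80161034, plus strand: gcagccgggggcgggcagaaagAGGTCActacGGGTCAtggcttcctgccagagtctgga
Unc5c, chr3:141653119-141653178, minus strand: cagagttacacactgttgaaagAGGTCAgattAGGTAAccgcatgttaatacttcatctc
Unc5c, chr3:141716526-141716585, plus strand: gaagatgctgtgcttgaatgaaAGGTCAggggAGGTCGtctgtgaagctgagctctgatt
Sema6d, chr2:124455340-124455399, minus strand: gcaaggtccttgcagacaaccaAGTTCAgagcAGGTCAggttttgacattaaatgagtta
Unc5c, chr3:141818942-141819001, minus strand: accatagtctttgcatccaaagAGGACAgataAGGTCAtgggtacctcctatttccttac
The first hexamer is intact in the elements of Sema3f, Efna2 and the first pair of Unc5c elements, and the second hexamer in the others. The centres of these elements lay between 18 and 136 bp from the summit of their TRBS. Their TRBS ranged in fold enrichment from 5.05 to 24.2. The TRBS of Epha6, Sema3f, Sema6d and Unc5c were intronic, and that of Efna2 lay upstream of the gene.

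The strongest linked TRBS, in an intron of Robo3, held no DR4. It is shown for contrast as the 101 bases centred on its summit, on the plus strand, in which neither strand carries AGGTCA, so that nothing is capitalised.
Robo3 summit, chr9:37430748-37430848, plus strand: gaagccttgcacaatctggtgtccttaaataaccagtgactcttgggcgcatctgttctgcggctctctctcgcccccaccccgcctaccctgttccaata

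TRα1 occupancy was found near most of the axon guidance genes. Of the 68 members, 57 had at least 1 linked TRBS, or 83.8% (73.3 to 90.7), where 57.7% of all protein-coding genes did. A DR4 with at most 2 mismatches was present in a linked TRBS of 21 members, or 30.9% (21.2 to 42.6), beside 17.8% of all genes. The median number of linked TRBS per gene was 2 among the members and 1 among all genes. The members were long genes, with a median gene length of 51.5 kb (range 4.64 to 1097) beside 17.4 kb for all genes, and a longer gene offers more sequence in which a TRBS can be linked. Per 100 kb of linked region, the members had 1.28 TRBS and all genes had 1.54.

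With a window of equal width for every gene, 30 kb on either side of the TSS and no gene body, 51 members had a TRBS, or 75.0% (63.6 to 83.8), beside 53.3% of all genes. Within 1 kb of the TSS, 22 members had a TRBS, or 32.4% (22.4 to 44.2), beside 23.2% of all genes. The background lay below the interval of the members for the 30 kb window and inside it for the 1 kb window. These shares are descriptions, since neighbouring members share TRBS and the genes were not compared with genes of like length or expression.

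The 11 members without a linked TRBS were the semaphorins Sema3c, Sema4f and Sema5b, the plexin Plxnb3, the netrin Ntn1, the netrin receptor Unc5d and the Eph receptors Epha1, Epha2, Epha5, Epha8 and Ephb3. Another 16 members had 1 TRBS, 22 had 2 or 3, and 19 had 4 or more, a number reached by 10.9% of all genes. The 5 members with the most TRBS, namely Slit3, Epha4, Ephb1, Plxna4 and Dcc, held 48 of the 178.

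**Figure D1:**
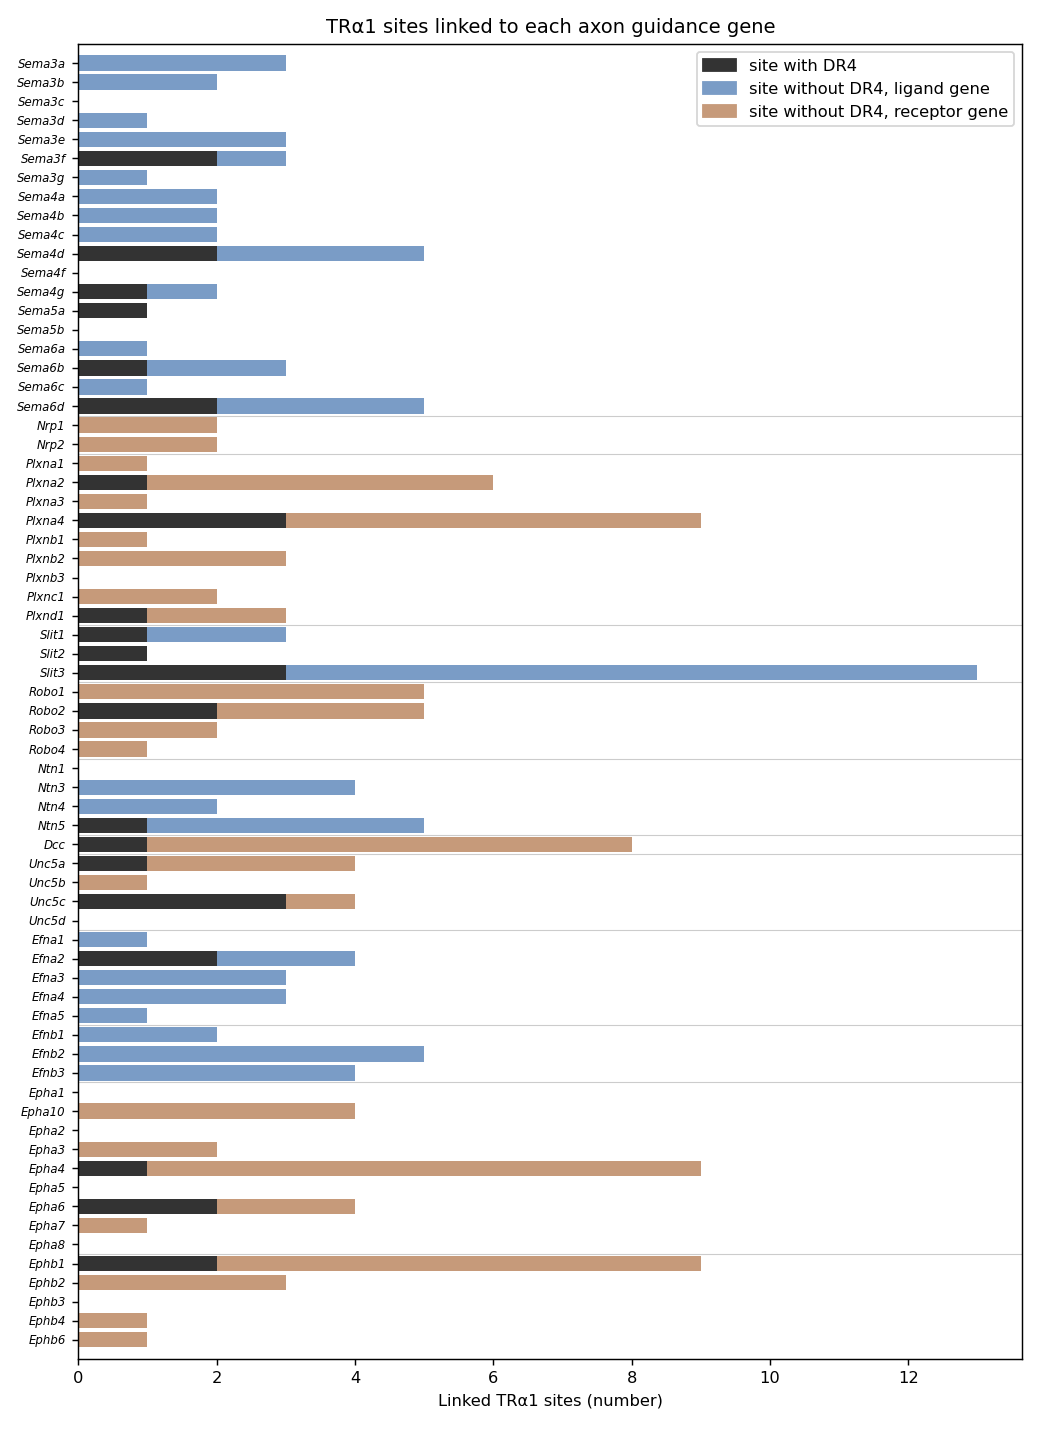
Number of linked TRBS (x axis) for each of the 68 axon guidance genes (y axis, grouped by family), with TRBS that hold a DR4 in black and the others in blue for ligand genes and in ochre for receptor genes. Slit3 has the longest bar, with 13 TRBS, and 11 genes have no bar.

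The limit of 30 kb left out TRBS that lay only slightly farther away. The farthest upstream TRBS still linked lay 29708 bp from Epha10, 29670 bp from Plxnb2 and 29547 bp from Efna2. They were nearest to the TSS of 1110065P20Rik, Ppp6r2 and Midn, respectively. The other upstream TRBS of Epha10 were nearest to the TSS of Maneal. Just outside were a TRBS 30444 bp upstream of Epha10 with a fold enrichment of 16.6 and a TRBS 30629 bp upstream of Efna2 with 39.3. Both may belong to other genes, since their nearest TSS was not determined. Among members without a linked TRBS, the nearest one lay 7890 bp beyond the linked region of Sema5b and 8799 bp beyond that of Ephb3. For Ntn1 it lay 22595 bp beyond the linked region. For Unc5d it lay 280216 bp beyond, past the 3′ end of the gene and 853 kb from the TSS.

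A linked TRBS was not always closest to the member. The nearest protein-coding TSS belonged to a member for 128 of the 178 TRBS, or 71.9% (64.9 to 78.0). Another 18 TRBS lay within 1 kb of the TSS of a gene that was no member, and 16 lay inside the body of such a gene. Ntn5 is the clearest case, because all 5 of its TRBS lay beyond its 3′ end and nearest to the TSS of Sec1, Car11 or Dbp. Every TRBS of Efna1, Ephb4, Plxna3, Plxnb1, Sema3g and Sema6c was likewise nearest to the TSS of another gene. The TRBS of Efna4 and Robo4 were nearest to the TSS of Efna3 and Robo3. Altogether 48 members were themselves the nearest gene of at least 1 TRBS. In addition, 4 TRBS were linked to a pair of members, namely 3 to Efna3 and Efna4 and 1 to Robo3 and Robo4, so that 178 TRBS gave 182 links.

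The strength of a TRBS is given as the fold enrichment of MACS, the ratio of the fragment pileup at the summit to the local background with 1 added to each. The 178 linked TRBS had a median fold enrichment of 7.07 (6.59 to 7.81) and a range of 4.27 to 64.8. The median over all TRBS was 7.40, inside this interval. The median pileup was 21 fragments (range 14 to 237) beside 21 over all TRBS, and the median length was 420 bp beside 422 bp. A score of at least 200 was reached by 51 linked TRBS, or 28.7% (22.5 to 35.7), beside 31.4% of all TRBS. The lowest fold enrichment, 4.27 at Sema3e, came from a pileup of 23 fragments over a local background of 4.62 fragments. The lowest pileup, 14 fragments, gives over a background at its floor of 1.69 fragments the fold enrichment of 5.58 that recurs below.

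**Figure D2:**
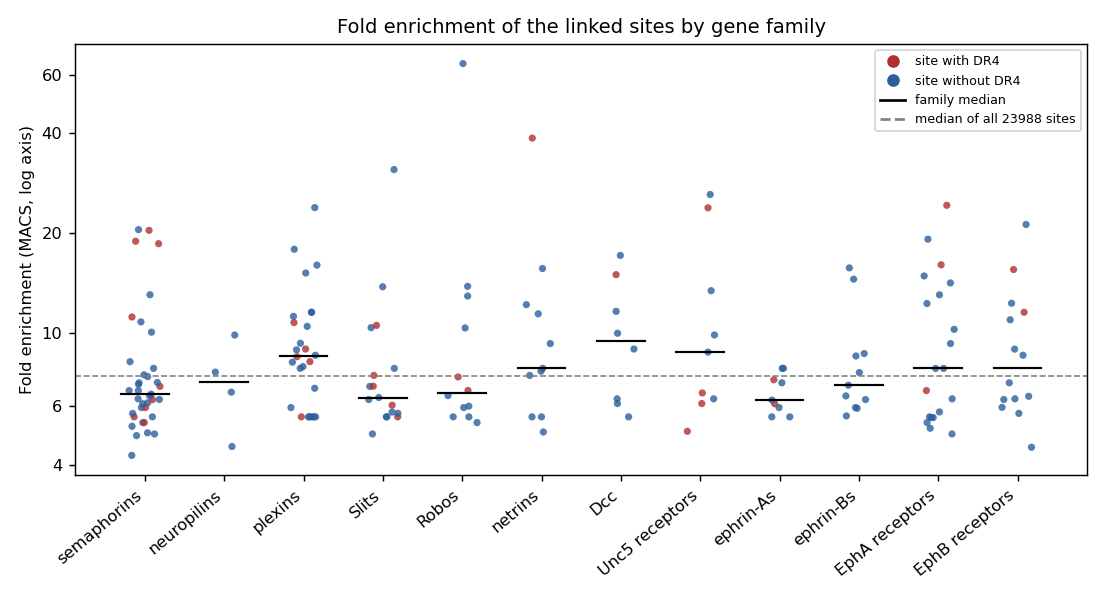
Fold enrichment of every linked TRBS (y axis, log scale) by gene family (x axis), with TRBS that hold a DR4 in red, the others in blue, the family median as a bar and the median of all 23988 TRBS as a dashed line. The family medians lie between 6.27 and 9.45, and single TRBS of Robo3, Ntn5 and Slit3 stand above 30.

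Among the ligands, 30 of 34 genes had a linked TRBS, with 85 TRBS in all, and among the receptors 27 of 34, with 93, where 57.7% of all genes had one. DR4 elements were found in 17 TRBS of the ligands and in 17 of the receptors. The median fold enrichment was 6.69 for the ligands and 8.15 for the receptors. The linked regions of the receptors were longer, and the density was 1.54 TRBS per 100 kb for ligands and 1.10 for receptors.

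The semaphorins are secreted (class 3) or membrane-bound (classes 4 to 6) cues that mostly repel axons. In this family 16 of 19 genes had a linked TRBS, where 57.7% of all genes had one. A linked TRBS with a DR4 was found for 6 of the 19, beside 17.8% of all genes. The 37 TRBS had a median fold enrichment of 6.53. Class 3 had 13 TRBS over 7 genes and a highest fold enrichment of 11.2, reached at the DR4-containing TRBS of Sema3f. Class 4 had 13 TRBS over 6 genes and a higher density, with 2.90 TRBS per 100 kb beside 0.949 in class 3.

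Sema4d, a membrane-bound ligand of Plxnb1, had 5 TRBS. The strongest had a fold enrichment of 18.6, lay 102904 bp downstream of the TSS in an intron and held a DR4, while that at the promoter, 102 bp upstream, had 5.58. Sema6d, a ligand of class A plexins, also had 5, of which that 293062 bp downstream had a fold enrichment of 20.5 and no DR4. The other 4 TRBS of Sema6d had between 5.23 and 6.29, and they included both of its TRBS with a DR4.

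Sema6b had a TRBS of 18.9 fold in an intron, 1973 bp downstream of the TSS, whose DR4 was centred 7 bp from the summit. Sema4g had a TRBS of 20.4 fold that also held a DR4, but it lay 24813 bp from the TSS, beyond the end of the gene and 500 bp from the TSS of Lzts2. At the TSS of class 3 genes the TRBS were weak, with a fold enrichment of 4.90 at Sema3d, 4.27 at Sema3e and 4.99 at Sema3f. All 4 semaphorin TRBS of over 18 fold lay in introns or beyond the gene.

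Plexins are the signalling receptors of semaphorins, and neuropilins bind the class 3 ligands beside them. Plexins had 26 TRBS over 8 of 9 genes, where 57.7% of all genes had a linked TRBS. Their median fold enrichment was 8.51, and they had 2.04 TRBS per 100 kb. Plxna4 carried 9, all within the gene, of which 3 held a DR4. Their fold enrichment ran from 5.58 in 5 TRBS to 17.9 at the intronic TRBS 242000 bp downstream of the TSS, which held no DR4.

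Plxna2, another class A plexin, had 6 TRBS. Its strongest pair flanked the TSS, with 15.99 fold at 632 bp upstream and 15.1 fold at 1736 bp downstream, and neither held a DR4. The other 4 were intronic and lay between 57983 and 85151 bp downstream, with 6.80 to 11.5 fold. Plxnb2 had a TRBS of 23.8 fold 15632 bp upstream, but this was 76 bp from the TSS of Dennd6b, and the TRBS at its own TSS had 10.5 fold. Nrp1 had a pair of TRBS around its TSS, of 9.85 and 4.54 fold, and Nrp2 had 1 upstream and 1 intronic TRBS, of 7.61 and 6.62 fold. No TRBS of the neuropilins held a DR4.

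Slits are secreted proteins that repel axons through Robo receptors. All 3 Slit genes had linked TRBS, beside 57.7% of all genes, and all 3 had one with a DR4, beside 17.8%. None had one within 1 kb of the TSS, where 23.2% of all genes did. The median length of the Slit genes was 325 kb, beside 17.4 kb for all genes. Slit3 had 13 TRBS, the most of any member, all in introns and spread from 11916 to 542579 bp downstream of the TSS. Its strongest, of 31.0 fold, lay 57297 bp downstream, held no DR4 and was 738 bp past the start of a shorter annotated transcript. Among the other 12, the fold enrichment ran from 4.95 to 13.8, and 3 held a DR4, 1 of them with 3 separate matches. Slit1 had 3 intronic TRBS of 5.58 to 10.4 fold, and Slit2 had 1 of 6.90 fold, 25057 bp downstream, with a DR4.

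Robo receptors had 12 TRBS over all 4 genes, where 57.7% of all genes had a linked TRBS. Robo1 and Robo2, which are the main Slit receptors of forebrain axons, had 5 each. The TRBS of Robo1 were all over 47 kb from the TSS, and the strongest, of 13.8 fold, was 354 bp past the start of a shorter transcript of Robo1. Robo2 instead had a pair at its TSS, of 10.3 fold at 166 bp and 6.70 fold at 843 bp downstream, the weaker of which held a DR4.

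Robo3 controls midline crossing of commissural axons, and Robo4 is known from endothelial cells. The TRBS shown above lies at chr9:37430486-37431212, had a pileup of 237 fragments and 64.8 fold, the highest of the 178, and was linked to both genes. It was in an intron of Robo3, 2448 bp downstream of the TSS and 664 bp before the start of a shorter Robo3 transcript, and it lay 28901 bp from the TSS of Robo4. The only other TRBS linked to Robo3, 23301 bp upstream, had 5.95 fold.

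Netrins are secreted guidance proteins that attract through Dcc and repel through Unc5 receptors. Ntn1, the netrin best known for attracting axons, had no linked TRBS. Ntn4 had 2 in its own body, a TRBS of 7.66 fold in its first exon and one of 15.6 fold in an intron 32220 bp downstream. For Ntn3, 3 of 4 TRBS were nearest to the TSS of Tbc1d24. The second strongest of all linked TRBS, with a pileup of 216 fragments and 38.6 fold, was linked to Ntn5 only by distance. It lay at chr7:45707165-45708400, inside Dbp and 2765 bp from the Dbp TSS. Dbp is a transcription factor gene of the circadian output, and this TRBS held a DR4 with 2 mismatches centred 2 bp from the summit.

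Dcc, the attractive netrin receptor and the longest member with 1097 kb, had 8 TRBS. The strongest, of 17.1 fold, lay 1701 bp upstream of the TSS, and another of 6.12 fold lay 605 bp upstream. The other 6 were intronic, from 30549 to 838212 bp downstream, with 5.58 to 14.97 fold, and 1 of them, of 14.97 fold, held a DR4. Dcc had 0.710 TRBS per 100 kb, fewer than the members together.

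The Unc5 receptors turn the netrin response towards repulsion. Unc5a had 4 TRBS within 87 kb of linked region. The strongest were intronic, with 26.1 fold at 7996 bp and 23.8 fold at 51013 bp downstream, and the promoter had 13.4 fold at 171 bp upstream. Only the TRBS at 51013 bp held a DR4, centred 307 bp from the summit. Unc5c had 4 intronic TRBS, from 100401 to 353737 bp downstream, and 3 of them held the DR4 elements with 1 mismatch shown above. These 3 were weak, with 5.05, 6.12 and 6.59 fold and a pileup of 20 fragments each, and the TRBS without a DR4 had 8.74 fold. Unc5b had 1 TRBS of 6.32 fold and Unc5d had none.

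Ephrin-A ligands are held in the membrane by a lipid anchor and bind EphA receptors. All 5 ephrin-A genes had linked TRBS, where 57.7% of all genes had one. These TRBS were weak, from 5.58 to 7.81 fold. Only Efna2 had any with a DR4, where 17.8% of all genes did. Efna2 had 4 TRBS, 1 at its promoter and 3 farther upstream, nearest to the TSS of Midn or Cirbp. The 2 with a DR4 were 18541 and 19819 bp upstream, with 7.22 and 6.11 fold.

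Ephrin-B ligands span the membrane and also signal into their own cell. Each of the 3 genes had a TRBS within 1 kb of the TSS, where 23.2% of all genes did. None of the 11 TRBS of these genes held a DR4, beside 17.3% of all TRBS. The linked regions were short, and the density of 5.68 TRBS per 100 kb was the highest of the 12 families. Efnb3 had 15.7 fold at 59 bp and 14.5 fold at 3557 bp downstream of the TSS. Efnb2 had 5 TRBS of 5.61 to 7.59 fold, and Efnb1 had a pair around its TSS, of 8.51 and 5.92 fold.

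Eph receptors had 34 TRBS over 9 of 14 genes, where 57.7% of all genes had a linked TRBS. The EphA receptors had 20 TRBS over 5 of 9 genes, and the EphB receptors had 14 over 4 of 5. Epha4, which binds ephrins of both classes, had 9 TRBS at 5.06 per 100 kb, the densest among the 5 members with the most TRBS. Its promoter TRBS, 172 bp upstream, had 12.3 fold. The strongest, of 16.03 fold, was intronic, 108266 bp downstream, and held a DR4 centred 62 bp from the summit. No other TRBS of Epha4 held a DR4. Epha6 had its strongest TRBS, of 24.2 fold with a pileup of 88 fragments, at chr16:60006485-60007302 in an intron 598530 bp downstream of the TSS. This TRBS carried 2 DR4 matches, the closer of which is shown above, and no other linked TRBS combined a DR4 of 1 mismatch with over 20 fold.

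Epha3 had a TRBS of 19.1 fold over its first coding exon, 142 bp downstream of the TSS. Ephb1, an EphB receptor known from axon sorting at the optic chiasm, had 9 TRBS within the gene. Its strongest, of 15.5 fold, covered the first exon, was with 2135 bp the longest linked TRBS, and held a DR4 centred 322 bp from the summit. Another of 11.5 fold, 14017 bp downstream, also held a DR4, and the remaining ones had 5.71 to 8.93 fold. Ephb6, which lacks kinase activity, had its only TRBS at the promoter, 541 bp upstream, with 21.2 fold and no DR4.

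**Figure D3:**
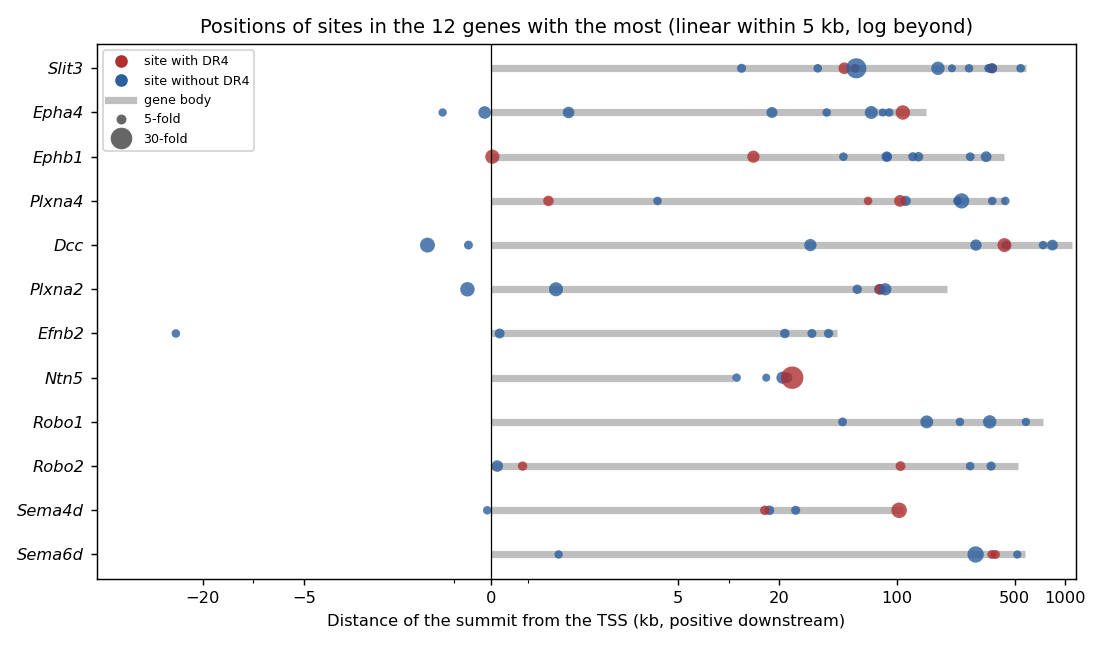
Summit positions of the linked TRBS of the 12 members with the most (x axis, distance from the TSS in kb, linear within 5 kb and logarithmic beyond), with the gene body in grey, TRBS with a DR4 in red and point area rising with fold enrichment. TRBS of Slit3, Ephb1 and Plxna4 lie within the gene bodies, whereas those of Ntn5 lie beyond the end of the gene.

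Most linked TRBS were intronic. Introns held 111 of the 178 summits, or 62.4% (55.1 to 69.1), the sequence upstream of the genes 37, untranslated exons 14, the sequence beyond the genes 11 and coding exons 5. The intronic share of all TRBS was not computed here, and the paper reports that many TRBS of its data sets lie in introns. Within 1 kb of the TSS of a member lay 25 TRBS, or 14.0% (9.70 to 19.9), where 25.8% of the 18964 TRBS linked to any protein-coding gene lay as close to the TSS of such a gene. When TSSs of all protein-coding genes were counted, 43 of the 178 lay within 1 kb of one, or 24.2%. At more than 100 kb from the TSS lay 48 of the 178, or 27.0% (21.0 to 33.9), beside 18.1% of the TRBS linked to any gene. The members are longer than other genes, and the part of gene length in these shares was not tested.

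**Figure D4:**
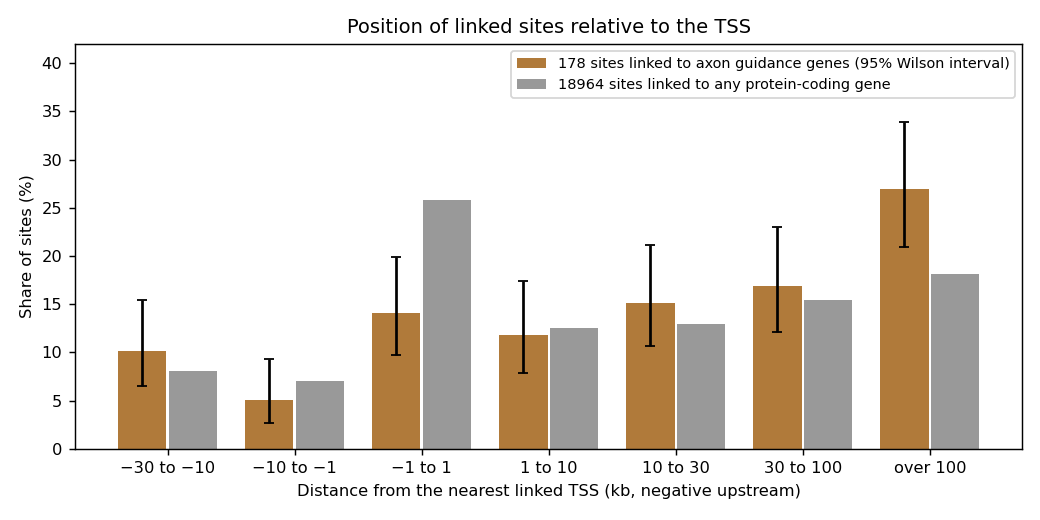
Share of linked TRBS (y axis, %) by distance of the summit from the nearest linked TSS (x axis, kb, negative upstream), for the 178 TRBS of the axon guidance genes in ochre with 95% Wilson intervals and the 18964 TRBS linked to any protein-coding gene in grey. Within 1 kb of the TSS the ochre bar stands at 14.0% and the grey bar at 25.8%, and beyond 100 kb they stand at 27.0% and 18.1%. The ochre bars count only the TSSs of members, and the grey bars those of any protein-coding gene. By the TSSs of any protein-coding gene, 24.2% of the 178 lie within 1 kb.

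The GENCODE annotation lists several transcripts for many of these genes, and counting every transcript start brought more TRBS close to one. Of the 182 links, 25 were within 1 kb of the TSS of the gene and 38 within 1 kb of any annotated transcript start of it. The TRBS of Robo3, Slit3 and Robo1 next to internal starts belong to the difference. TRBS also occurred in close pairs, with 18 pairs of neighbouring summits less than 2 kb apart, for example 357 bp at Efnb1, 590 bp at Ephb1, 677 bp at Robo2 and 740 bp at Slit3. Such neighbours are separate entries of the list and may not be independent.

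DR4 was searched on both strands with at most 2 mismatches in the 12 hexamer bases. It was present in 34 of the 178 linked TRBS, or 19.1% (14.0 to 25.5), beside 17.3% of all TRBS. In neighbouring windows as wide as the TRBS, placed 5 kb to its right and left, it was present in 1.69% (0.575 to 4.84) and 5.62% (3.08 to 10.03). Over all TRBS the same windows gave 5.90% and 5.71%. The share in the TRBS lay above both windows without overlap of the intervals, and its interval included the share of all TRBS. Within 100 bp of the summit, 27 linked TRBS held a DR4, or 15.2% (10.6 to 21.2), beside 13.1% of all TRBS.

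**Figure D5:**
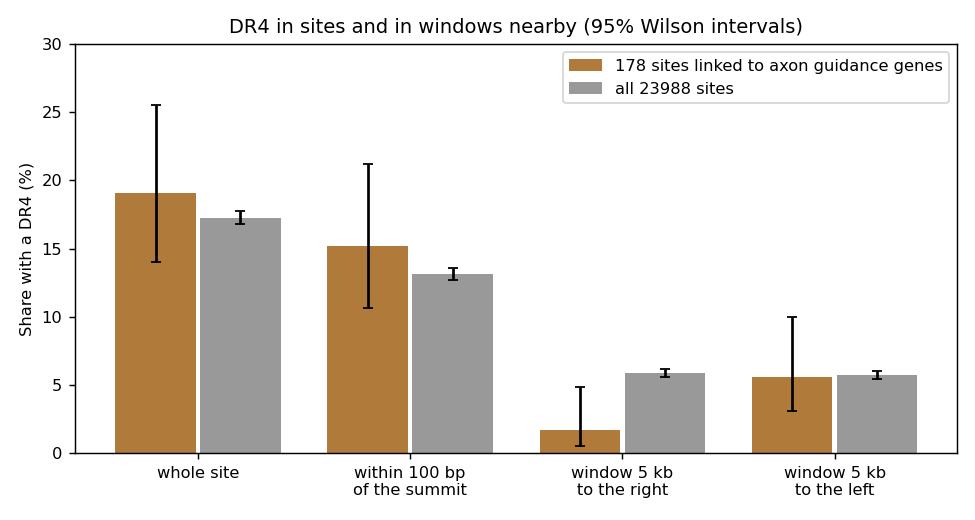
Share of TRBS with a DR4 of at most 2 mismatches (y axis, %) in the whole TRBS, within 100 bp of the summit and in windows of equal width 5 kb to either side (x axis), for the 178 linked TRBS in ochre and all 23988 TRBS in grey, with 95% Wilson intervals. The linked TRBS reach 19.1%, and their windows 1.69 and 5.62%.

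The 34 TRBS held 39 DR4 matches, 21 of them on the forward strand. Mismatches fell in both hexamers in 24 matches, in the first hexamer only in 7 and in the second only in 8. The median distance between the centre of a match and the summit was 63 bp. By position, 26 of the 34 TRBS were intronic, 4 were upstream of the gene, 2 were in untranslated exons and 2 lay beyond the gene. At the promoters 2 of 25 TRBS held a DR4, those of Ephb1 and Robo2, or 8.00% (2.22 to 25.0), and elsewhere 32 of 153 did, or 20.9% (15.2 to 28.0). The promoter TRBS had a median GC content of 63.2% in the 201 bp around the summit, where the others had 50.7%. The median fold enrichment was 7.40 (6.59 to 11.2) with a DR4 and 7.03 (6.38 to 7.81) without one, a difference within the intervals.

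Other short motifs within 100 bp of the summit were counted for context, on both strands and without mismatches. A single AGGTCA hexamer, which also forms each part of a perfect DR4, was present in 15.2% of the linked TRBS and in 17.8% of all TRBS. The AP-1 motif TGANTCA was present in 13 linked TRBS, or 7.30% (4.32 to 12.1), beside 11.5% of all TRBS, among them the strong TRBS of Epha6 and that of Plxna4 with 17.9 fold. The E-box CAGCTG was present in 14.6% beside 12.8%, and the CRE motif TGACGTCA in 1 linked TRBS, at Sema6b. Each motif had a share of all TRBS that lay inside the interval of the linked TRBS. A match describes the letters in the sequence and does not show that a factor was bound.

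Genes that act with these ligands and receptors were described from a list of 40 guidance genes outside the families. The list was chosen with earlier results of these data known, so that its shares are descriptions only. Of these 40 genes, 36 had a linked TRBS, where 57.7% of all genes had one. Within 30 kb of the TSS 30 of the 40 had one, where 53.3% of all genes did. A linked TRBS with a DR4 was found for 17 of the 40, where 17.8% of all genes had one. Their median number of TRBS was 2, as among the members. Their gene lengths ran from 5.29 kb at Cdk5 to 580 kb at Dscam, beside a median of 17.4 kb for all genes. The part of gene length in these counts was not tested. All 3 Srgap genes, which encode Robo-binding GTPase-activating proteins, had TRBS with a DR4, and Srgap1 had 9 TRBS with a highest fold enrichment of 57.6. Tiam1, a Rac activator downstream of Eph receptors, had 12 TRBS with up to 37.9 fold, and Dscam, a further netrin receptor, had 10 with up to 31.0 fold. Crmp1, a mediator of semaphorin signals, had 6 TRBS with up to 30.3 fold, and no TRBS was linked to Dpysl3, Farp2, Rnd1 or Rgs3.

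The cell type label could be compared with the list only through TRBS near marker genes, since expression was not analysed here. TRBS were linked to 9 of 10 markers of striatal GABAergic neurons, with 18 at Bcl11b, 9 at Ppp1r1b and 8 at Gad1 and none at Adora2a. Of 11 markers of other cells of the tissue, 4 had a linked TRBS, with 11 at the oligodendrocyte gene Mbp, 3 at Cx3cr1, 2 at Mog and 1 at Aif1. The 3 astrocyte and 2 endothelial markers had none. Both counts stand beside 57.7% of all genes with a linked TRBS, and TRBS near a gene do not show its expression. The part of other cells in the TRBS of the axon guidance genes was not tested.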

How the data were processed

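Reads of 2 ChIP libraries and 1 input library were aligned to GRCm38 with Bowtie2 2.3.2.2 and peaks were called with MACS2 2.1.1.20160309.0, per the submitters' processing notes, which name mm10 as the build. The authors removed peaks with a score below 60. Pooling of the ChIP libraries and treatment of duplicates are not given in the sources used here, and library depth was not analysed here. The deposited list gives for each peak the pileup (fragment coverage signal at the summit), the fold enrichment (a ratio), the −log10 p and −log10 q values and a score. The local background was recovered by dividing the pileup, with 1 added, by the fold enrichment and subtracting 1.

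Peaks were linked to GENCODE genes without mitochondrial ones. DR4 was searched in the NCBI RefSeq sequence of GRCm38. Wilson intervals were used for shares and order statistics for medians. Members and lists were chosen with earlier results of these data known. Named genes were the 12 members with the most TRBS, those of the 12 strongest TRBS, those with a DR4 of at most 1 mismatch and those without a TRBS. Others are named as examples of their families and were chosen after their values were seen. pysam 0.24.0, scipy 1.17.1, pandas 2.3.3 and numpy 2.4.6 were run under Python 3.11.15, and the search was tested on simulated data. Alternatives were other scores, windows, start sites and mismatch limits.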

Additional observations from a re-analysis of the deposited data

How the results depend on the processing

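Of 50 alternative values for the main results, 34 stayed within the limits set for them and 16 moved. For the linked TRBS of single genes, 116 of 168 alternative values stayed and 52 moved. With a score of at least 200, 31 of the 68 members had a linked TRBS, where 30.6% of all genes had one. At this score 51 TRBS remained, and their median fold enrichment was 13.8. The median number of TRBS over the 24 named genes with a TRBS fell from 4.5 to 1. Counting only TRBS within 30 kb of the TSS gave 100 TRBS, a DR4 share of 14.0%, a share within 1 kb of the TSS of 25.0% and a median of 2 TRBS over the same 24 genes. Linking by the gene body or 100 kb around the TSS gave 287 TRBS and a share within 1 kb of 8.71%. That share was 9.55% for a limit of 500 bp and 24.2% when the TSS of any protein-coding gene was used. The DR4 share was 3.93% with at most 1 mismatch, 48.9% with at most 3, and 1.69 and 5.62% in the windows 5 kb to the right and left. The number of members with a linked TRBS ran from 31 to 65 over the alternatives. By the gene body or 100 kb around the TSS, 65 of the 68 members had one, where 78.7% of all genes did. By the gene body or 10 kb around the TSS, 48 of the 68 members had one, where 44.7% of all genes did.

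No paired analysis was possible because the list holds no values for single libraries, and leaving out each library could not be run for the same reason. The intervals do not cover variation between animals. Linking by distance does not show which gene a TRBS acts on, and the list holds no TRBS below its score threshold of 60.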
